A study of Mus musculus with 6 samples.

Results

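Non-collagen matrix and collagen-modifying genes encode the proteins that surround, bind, crosslink and chemically modify collagen, and the sheets on which epithelia rest. The 41 genes were chosen by name from a table of 24346 gene rows, with earlier results of these data known, and all 41 were found. RNA was sequenced from the joined initial segment and caput of the epididymis, the proximal part of the duct that takes sperm and fluid from the testis. Wild-type mice aged 12 weeks had received busulfan by intraperitoneal injection (3 libraries) or, in the same way, dimethyl sulfoxide (DMSO, 3 libraries), the solvent. Busulfan is an alkylating drug that depletes germ cells of the testis. The sources used here give no dose, no time from injection to collection and no statement that each replicate is a separate mouse, so the p-values here set differences against a spread that may be technical. Whether busulfan acted on the epididymis itself or through the loss of germ cells cannot be told apart in this design.

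Fibroblasts and smooth muscle of the duct wall lay down collagen fibrils whose spacing is set by small leucine-rich proteoglycans and whose crosslinks are begun by lysyl oxidases. Prolyl and lysyl hydroxylases modify collagen chains in the endoplasmic reticulum, where hydroxyproline stabilises the triple helix. Elastic fibres are built of elastin on fibrillin microfibrils. Basement membranes under the epithelium and around vessels and muscle are nets of laminin, nidogen, perlecan and collagen IV, and laminins are trimers of an α, a β and a γ chain.

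With busulfan, 21 of the 39 genes that could be tested fell, 2 rose and 16 were not called (42.8% of all tested genes were called). The prolyl hydroxylase gene P4ha2 fell 25.2-fold and stood apart in size from every other member. The remaining 20 falls were smaller, with busulfan levels between 44.2% and 77.5% of DMSO levels. The lowest of these, Thbs1, averaged under 1 FPKM with busulfan and could be tested only through its DMSO libraries. The 2 rises were the laminin α chain genes Lama1 and Lama5, at 161% and 169.7% of DMSO levels. Values are the authors' normalized FPKM (fragments per kilobase of transcript, scaled to library size), and a gene was called when limma's Benjamini-Hochberg adjusted p over all 12848 tested genes was under 0.05. Among all tested genes 22.1% were called lower and 20.8% were called higher, against 53.8% and 5.13% of the tested members. On the log2(FPKM + 1) scale, the median change of busulfan over DMSO was -0.39 for the members and 0.00 to 2 decimals (-0.0034) for all tested genes. The groups of a gene did not overlap for 54.6% of all tested genes. Busulfan was wholly lower for 22 of the tested members (27.7% of all tested genes) and wholly higher for 2 members (26.9%).

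**Figure D1:**
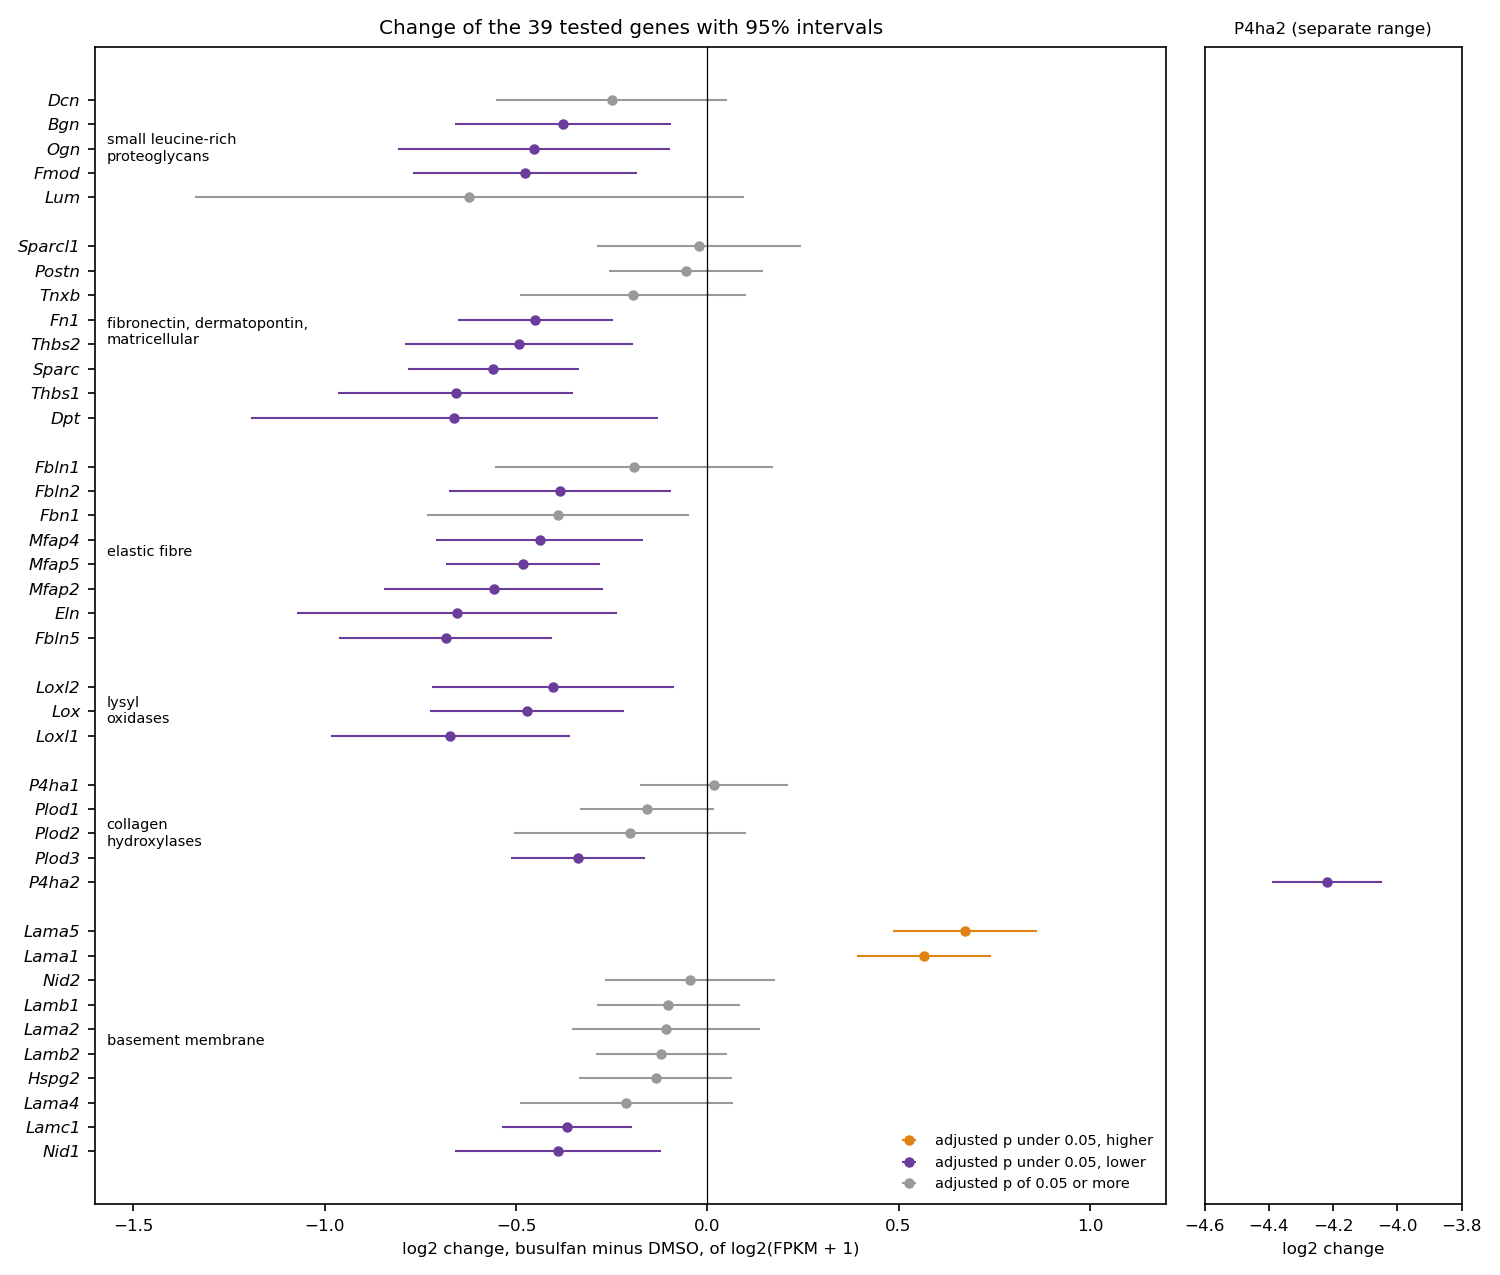
Log2 change (busulfan minus DMSO, of log2(FPKM + 1)) of the 39 tested genes on the horizontal axis with 95% intervals from limma, grouped by role; purple marks genes called lower, orange genes called higher and grey genes not called. P4ha2 at -4.22 needs a separate range, and Lama5 and Lama1 are the only genes called higher. Thbs1, drawn as lower, could be tested only through its DMSO libraries.

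The tissue held epithelium and several wall cell types, and a busulfan library stood apart in the fibroblast and smooth muscle markers. Beside the marker counts here, 22.1% of all tested genes were called lower and 20.8% higher. The summed level of 9 epithelial markers was 1262, 1315 and 1378 FPKM in the busulfan libraries and 1371, 1359 and 1367 FPKM in the DMSO libraries, with 5 lower, 3 higher and 1 not called, and no marker of any list was at 0. The 13 fibroblast markers summed to 485, 511 and 410 FPKM with busulfan, against 617, 587 and 689 FPKM with DMSO. Of these, 5 fell and 8 were not called, and the median log2 change was -0.24. The number lower was 2 or 3 without busulfan replicate 3, DMSO replicate 1 or DMSO replicate 2. Pdgfra and Cd34, which mark fibroblasts (Cd34 also endothelium), fell to 20.1 FPKM (Cd34) and 16.5 FPKM (Pdgfra) with busulfan, against 77.2 and 61.2 FPKM with DMSO, whereas Vim was at 100.5% of its DMSO level (these 3 named after their values were seen). Without Cd34 and Pdgfra the fibroblast sums were 444, 472 and 379 FPKM with busulfan and 491, 449 and 538 FPKM with DMSO, the busulfan mean was 87.7% of the DMSO mean, and the groups overlapped. Of 11 endothelial markers 8 fell and none rose, with a median of -0.57 and sums of 94.2, 84.3 and 83.7 FPKM with busulfan and 117, 119 and 130.2 FPKM with DMSO. Of 10 smooth muscle markers 2 fell (Actg2 and Mylk) and none rose, and without Actg2 the sums were 630, 618 and 520.2 FPKM with busulfan and 598, 557 and 611 FPKM with DMSO. Without busulfan replicate 3, 4 smooth muscle markers were called higher. Of 9 macrophage markers 1 fell and 1 rose, and of 6 pericyte markers 1 fell and 2 rose. The macrophage and pericyte falls were each lost without busulfan replicate 2 or 3 or DMSO replicate 2 or 3. In tissue pieces, fewer cells of a type and less RNA per cell cannot be told apart. Whether the fibroblast and endothelial changes have a part in those of the members was not tested.

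Busulfan replicate 3 had the lowest busulfan value for 34 of 39 tested members (87.2%), against 33.8% of all tested genes. It was also the lowest busulfan library for 12 of 13 fibroblast and 10 of 10 smooth muscle markers, but for 7 of 11 endothelial and 1 of 9 epithelial markers. DMSO replicate 3 had the highest DMSO value for 26 of 39 members (66.7%), against 34.2% of all tested genes. Without busulfan replicate 3, 15 members were lower and 2 higher. Without DMSO replicate 3, 12 members were lower and 2 higher. A set of 13 calls held on leaving out each of the 6 libraries in turn: Fn1, Thbs1, Sparc, Fbln5, Mfap2, Mfap5, Lox, Loxl1, P4ha2, Plod3, Lamc1, Lama1 and Lama5. Thbs1 averaged under 1 FPKM with busulfan, so its place there rests on a test entered through the DMSO libraries.

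**Figure D2:**
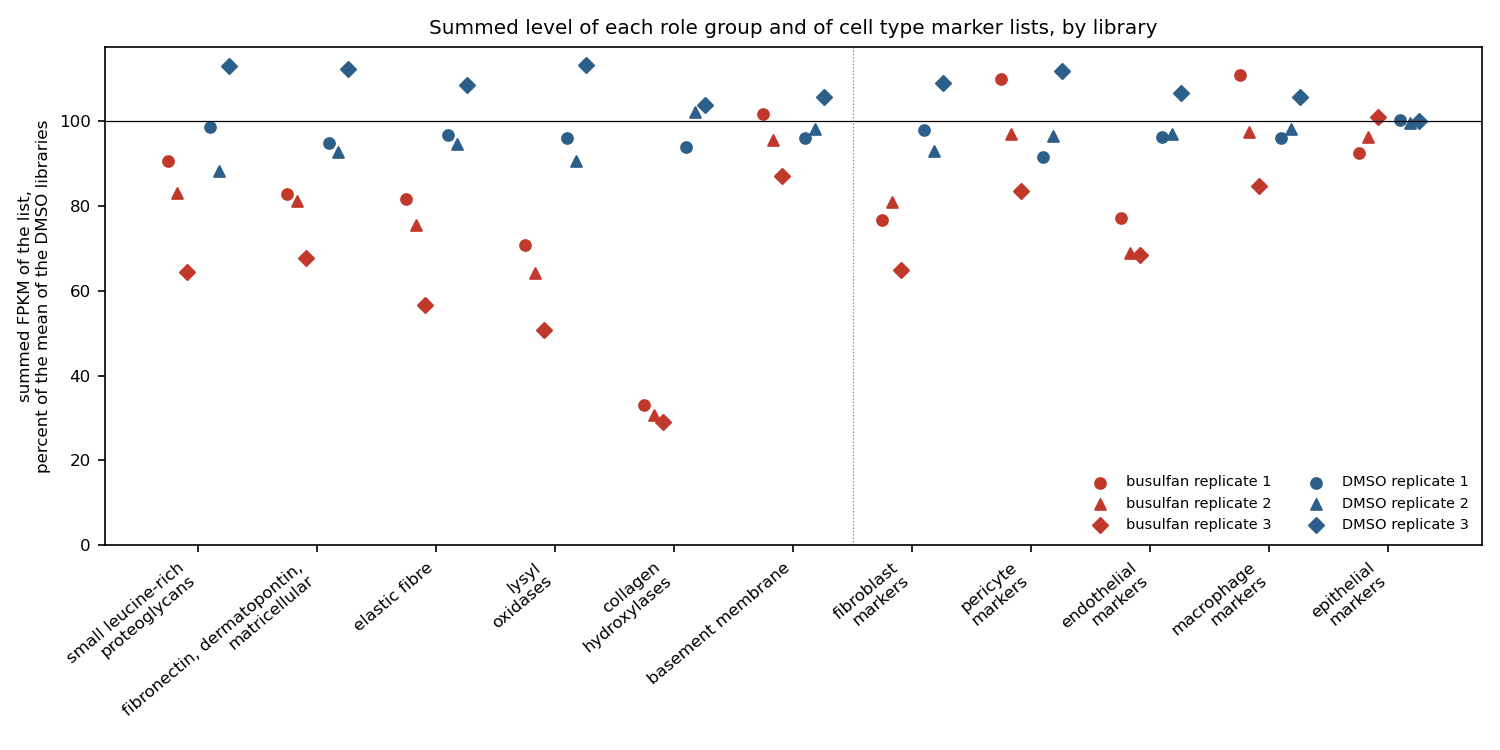
Summed FPKM of each role group and of cell type marker lists in each library, as a percent of the mean of the DMSO libraries (vertical axis), with busulfan libraries in red and DMSO libraries in blue. Busulfan replicate 3 (red diamond) is the lowest busulfan library in the 6 role groups, and smooth muscle markers are left out because Actg2 dominates their sum.

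P4ha2 is shown in sequence beside P4ha1, its paralog that did not change beyond the spread, and Lama5, the member with the largest rise, because these genes carry the largest difference, the contrast to it and the opposite direction. The windows run from 250 bases before to 50 bases after the start site (RefSeq, GRCm38.p6), 5′ to 3′ on the gene's own strand. They lie at chr11:54100674-54100973 (plus strand), chr10:59323046-59323345 (plus strand) and chr2:180225810-180226109 (minus strand). For P4ha2 the annotations differ: RefSeq starts the gene at 54100924, whereas GENCODE M21 starts it at 54100095, upstream of the whole window. Capitals mark the hypoxia response core ACGTG, the GC box GGGCGG and the TATA box TATAAA on either strand.
P4ha2: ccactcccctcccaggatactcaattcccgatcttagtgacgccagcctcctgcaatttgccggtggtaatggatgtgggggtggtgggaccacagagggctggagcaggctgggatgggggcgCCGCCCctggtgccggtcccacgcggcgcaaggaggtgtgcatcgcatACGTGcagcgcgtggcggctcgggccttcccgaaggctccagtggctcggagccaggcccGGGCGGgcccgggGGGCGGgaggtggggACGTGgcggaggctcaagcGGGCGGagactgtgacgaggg
P4ha1: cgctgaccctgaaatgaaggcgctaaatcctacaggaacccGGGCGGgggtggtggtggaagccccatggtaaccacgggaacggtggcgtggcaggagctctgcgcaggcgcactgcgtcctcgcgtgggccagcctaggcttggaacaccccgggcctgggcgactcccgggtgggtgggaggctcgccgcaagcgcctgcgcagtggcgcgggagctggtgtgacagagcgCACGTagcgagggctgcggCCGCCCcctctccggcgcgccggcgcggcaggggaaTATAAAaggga
Lama5: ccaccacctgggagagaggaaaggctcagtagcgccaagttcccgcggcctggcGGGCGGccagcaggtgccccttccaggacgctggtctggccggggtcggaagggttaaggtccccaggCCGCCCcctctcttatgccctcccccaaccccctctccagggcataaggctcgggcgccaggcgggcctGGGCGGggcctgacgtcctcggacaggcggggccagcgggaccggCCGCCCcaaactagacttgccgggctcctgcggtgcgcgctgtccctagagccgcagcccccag
The P4ha2 window held 2 hypoxia response cores and 4 GC boxes, and that of Lama5 held 4 GC boxes. That of P4ha1 held 1 hypoxia response core, 2 GC boxes and 1 match to the TATA box letters. This match lies at +40, after the start site. The ETS core CCGGAA, searched on both strands, was in none of these windows. In 32851 windows of the same length, 19.6% held the hypoxia response core, 35.7% the GC box, 13.6% the TATA box and 14.9% the ETS core. No motif here overlapped another, a match is not a binding site, and 25 of the 41 genes had a window in the table.

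The collagen hydroxylases held the gene with the largest fall, P4ha2, and had the widest spread of changes. Their median log2 change was -0.20, and 3 of the 5 tested genes were not called. P4ha1, P4ha2 and P4ha3 encode the catalytic α subunits of collagen prolyl 4-hydroxylase, the enzyme that makes hydroxyproline. P4ha2 (chromosome 11, 54100095 to 54131665 on GRCm38) stood at 2.72, 2.52 and 2.88 FPKM in the busulfan libraries, against 61.8, 71.0 and 71.4 FPKM in the DMSO libraries. The groups were far apart, with each busulfan library under 3 FPKM. The log2 change was -4.22 ± 0.07 (SE, limma adjusted p = 6.72e-09), rank 38 among the falls of 12848 tested genes. P4ha1 stood at 4.28, 5.14 and 4.41 FPKM with busulfan and 4.33, 4.73 and 4.54 FPKM with DMSO. Its groups overlapped, and its log2 change of 0.02 had a 95% interval of -0.18 to 0.21 (limma adjusted p = 0.879). P4ha3 was listed at 0 in the busulfan libraries and at 0.0355, 0.0657 and 0 FPKM in the DMSO libraries, too low to test. P4ha2 made up 38.8%, 32.9% and 39.5% of the summed FPKM of the 3 α subunit genes with busulfan and 93.4%, 93.7% and 94.0% with DMSO. This share follows from the levels of P4ha2 and P4ha1 and was not tested.

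The lysyl hydroxylase genes Plod1, Plod2 and Plod3 encode the enzymes that make hydroxylysine, an attachment point for sugars and crosslinks. Plod3, whose product also adds sugars to hydroxylysine, fell to 9.01 ± 0.903 FPKM with busulfan, against 11.6 ± 0.385 FPKM with DMSO (SD, n = 3 each). This was a log2 change of -0.34 ± 0.08 (SE, limma adjusted p = 0.00808). Plod1, the most abundant of them, stood at 13.4 ± 1.37 FPKM with busulfan and 15.0 ± 0.490 FPKM with DMSO, with an interval of -0.33 to 0.02 on the log2 scale, and was called lower without busulfan replicate 1. Plod2 stood at 1.51 ± 0.299 FPKM with busulfan and 1.89 ± 0.319 FPKM with DMSO (limma adjusted p = 0.252). Both overlapped between groups.

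Genes next to P4ha2 were looked up after its value was seen. Pdlim4, which encodes a PDZ and LIM domain protein, is the nearest protein-coding gene upstream. It lies 31.1 kb away on the minus strand, whereas P4ha2 is on the plus strand. Pdlim4 stood at 10.1, 9.38 and 8.03 FPKM with busulfan and at 82.6, 84.5 and 88.9 FPKM with DMSO, without overlap (log2 change -3.09, limma adjusted p = 5.82e-08). Acsl6, a fatty acyl-CoA synthetase gene 172.1 kb downstream, stood at 0.371, 0.523 and 0.211 FPKM with busulfan and at 2.86, 2.89 and 2.03 FPKM with DMSO. It was under 1 FPKM in each busulfan library and passed the filter through the DMSO libraries, so no test is given. Slc22a5, a carnitine transporter gene beyond Pdlim4, stood at 9.64 FPKM with busulfan and 7.96 FPKM with DMSO (log2 change 0.25, limma adjusted p = 0.0615). Csf2 and Il3, which lie between P4ha2 and Acsl6, were at or near 0 in both groups.

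**Figure D3:**
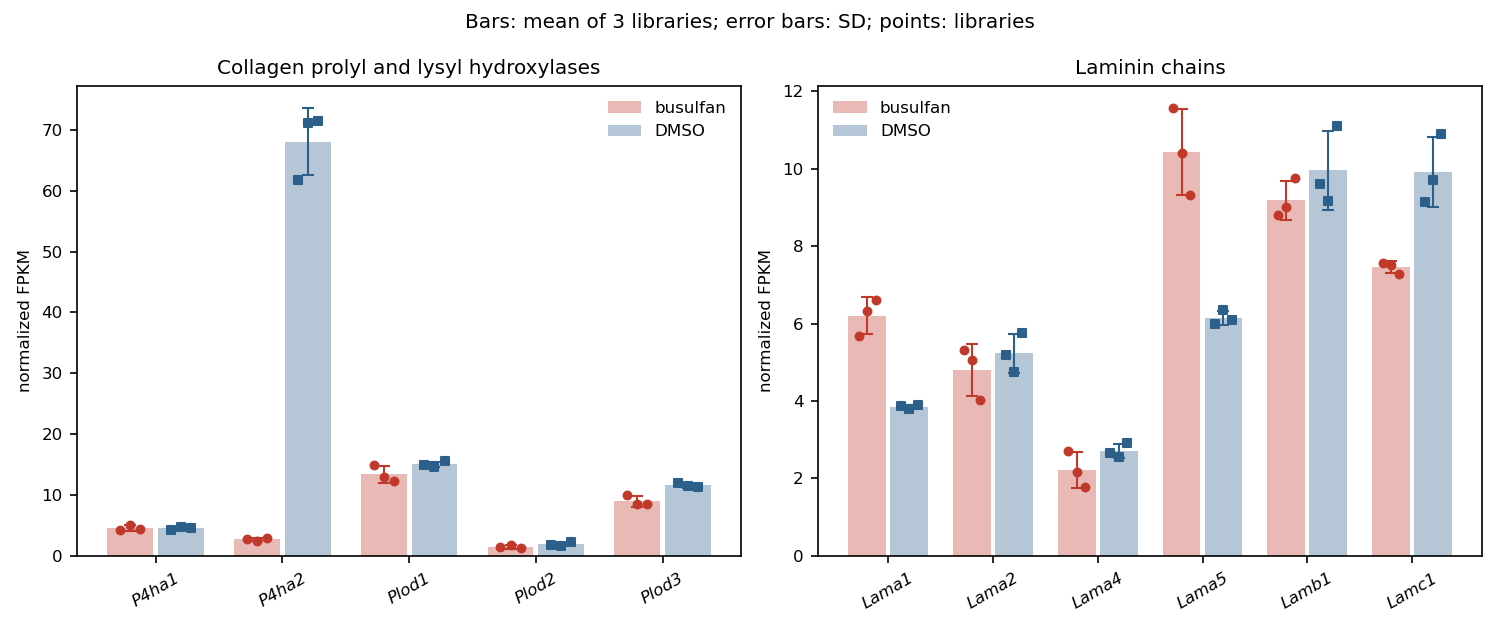
Normalized FPKM of collagen hydroxylase genes and laminin chain genes, with busulfan in red and DMSO in blue; bars are means of 3 libraries, error bars are SD and points are libraries. P4ha2 falls below P4ha1 with busulfan, and Lama1 and Lama5 are higher in each busulfan library than in any DMSO library.

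Of 10 basement membrane genes 2 were called lower, 2 higher and 6 not at all. These shares, 20% each, were close to the 22.1% lower and 20.8% higher of all tested genes. Their median log2 change was -0.11, and without replicate 3 of either group 1 gene was lower. Lama5 (chromosome 2, 180176373 to 180225859), the α5 chain typical of adult epithelial and vessel basement membranes, stood at 11.6, 10.4 and 9.33 FPKM with busulfan and 5.99, 6.35 and 6.10 FPKM with DMSO. Lama1 (chromosome 17, 67697259 to 67822647), the α1 chain found early in development and kept in some adult epithelia, stood at 5.68, 6.32 and 6.61 FPKM with busulfan and 3.88, 3.80 and 3.89 FPKM with DMSO. Neither gene's groups overlapped. Their log2 changes were 0.67 ± 0.08 (SE, limma adjusted p = 0.000352) for Lama5 and 0.57 ± 0.08 (SE, limma adjusted p = 0.000599) for Lama1. The α2 chain of muscle and the α4 chain of vessels did not pass. Lama2 stood at 5.31, 5.06 and 4.04 FPKM with busulfan and 5.19, 4.75 and 5.76 FPKM with DMSO, and Lama4 averaged 2.22 ± 0.467 FPKM with busulfan and 2.71 ± 0.179 FPKM with DMSO (SD, n = 3 each). Lama3, an epithelial α chain gene outside the 41, averaged 3.57 FPKM with busulfan and 4.09 FPKM with DMSO and was not called (limma adjusted p = 0.252; named after its values were seen). Lama1 and Lama5, put together because they were the genes called higher, made up 60.6%, 60.0% and 62.8% of the summed FPKM of these 5 α chain genes with busulfan, against 46.1%, 46.0% and 44.1% with DMSO, a description with no test.

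No β or γ chain gene among the members was called higher. Lamc1, the γ1 chain shared by most laminins, fell to 7.57, 7.50 and 7.28 FPKM with busulfan, against 9.14, 9.71 and 10.9 FPKM with DMSO (log2 change -0.37 ± 0.07, SE, limma adjusted p = 0.00476). Lamb2, the β2 chain and the most abundant gene of the group, stood at 48.2, 43.9 and 39.2 FPKM with busulfan and 46.0, 48.6 and 48.0 FPKM with DMSO. Lamb1, the β1 chain, averaged 9.19 ± 0.507 FPKM with busulfan and 9.96 ± 1.01 FPKM with DMSO (SD, n = 3 each). The intervals of both β chains, -0.29 to 0.05 for Lamb2 and -0.29 to 0.08 for Lamb1, took in 0. Whether the α chains differ from their partners was not tested beyond these separate values.

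Of the linker proteins of the basement membrane, 1 was called. Nid1, which joins laminin to collagen IV, fell to 10.9, 10.6 and 8.91 FPKM with busulfan, against 12.1, 12.6 and 16.3 FPKM with DMSO. Its log2 change was -0.39 ± 0.12 (SE, limma adjusted p = 0.0275), and the call was lost without busulfan replicate 3 or without DMSO replicate 3. Its paralog Nid2 stood at 3.63, 3.77 and 3.03 FPKM with busulfan and 3.93, 3.33 and 3.59 FPKM with DMSO, with an interval of -0.27 to 0.18. Hspg2, which encodes perlecan, a heparan sulfate proteoglycan, stood at 8.11, 6.92 and 6.39 FPKM with busulfan and 7.75, 7.74 and 8.23 FPKM with DMSO. Of 11 endothelial markers, from vessels that also have a basement membrane, 8 fell and 3 were not called, and their part here was not tested.

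All 3 lysyl oxidase genes were called lower, as were 22.1% of all tested genes. Lox, which oxidises lysines of collagen and elastin as the opening step of crosslinking, stood at 1.84, 2.12 and 1.67 FPKM with busulfan and 2.87, 2.68 and 3.43 FPKM with DMSO. Loxl1, which is needed for elastic fibre renewal, stood at 3.83, 2.64 and 2.36 FPKM with busulfan and 5.16, 4.89 and 5.58 FPKM with DMSO. Loxl2, which also acts on basement membrane collagen, stood at 2.79, 2.90 and 2.04 FPKM with busulfan and 3.43, 3.25 and 4.51 FPKM with DMSO. No busulfan library reached a DMSO library for any of these genes. The log2 changes were -0.47 ± 0.11 (SE, limma adjusted p = 0.00946) for Lox, -0.67 ± 0.14 (SE, limma adjusted p = 0.00484) for Loxl1 and -0.40 ± 0.14 (SE, limma adjusted p = 0.045) for Loxl2. Loxl2 kept its call only when DMSO replicate 2 was the library left out. Their sum was 8.46, 7.66 and 6.07 FPKM with busulfan and 11.5, 10.8 and 13.5 FPKM with DMSO. The fibroblast marker sums given above were 74.2% of the DMSO mean, or 87.7% without Cd34 and Pdgfra, and their part was not tested.

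Among 8 elastic fibre genes 6 were called lower (75%, against 22.1% of all tested genes) and 2 were not called. Their median log2 change was -0.46, and without DMSO replicate 3 the number lower was 3. Eln, which encodes tropoelastin, stood at 7.99, 6.37 and 4.74 FPKM with busulfan and 8.996, 9.44 and 13.2 FPKM with DMSO (log2 change -0.65 ± 0.18, SE, limma adjusted p = 0.0204), a call not kept without DMSO replicate 3. Fbln5, a fibulin that brings elastin and lysyl oxidase-like enzymes to microfibrils, stood at 2.96, 2.51 and 2.09 FPKM with busulfan and 4.46, 4.14 and 5.34 FPKM with DMSO. It had the largest fall of the group, -0.68 ± 0.12 (SE, limma adjusted p = 0.00253), and its groups lay well apart. Mfap2 and Mfap5 encode microfibril-associated glycoproteins that bind fibrillin. Mfap2 stood at 7.18, 6.30 and 5.16 FPKM with busulfan and 8.18, 10.5 and 10.1 FPKM with DMSO (limma adjusted p = 0.00755). Mfap5 averaged 3.22 ± 0.241 FPKM with busulfan and 4.90 ± 0.412 FPKM with DMSO (SD, n = 3 each; limma adjusted p = 0.00288). Both calls held on leaving out each library.

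Mfap4, a microfibril protein and the most abundant gene of the group, stood at 45.8, 43.1 and 32.4 FPKM with busulfan and 53.8, 52.1 and 58.0 FPKM with DMSO (log2 change -0.44, limma adjusted p = 0.0175), a call lost without DMSO replicate 3 and after quantile normalization. Fbln2 fell to 2.88 ± 0.453 FPKM with busulfan, against 4.07 ± 0.620 FPKM with DMSO, and its call was lost without busulfan replicate 2 or 3 or without DMSO replicate 1 or 3. Fbn1, which encodes fibrillin-1, the backbone of microfibrils, stood at 3.33, 2.90 and 1.91 FPKM with busulfan and 3.92, 3.41 and 4.09 FPKM with DMSO. Its groups did not overlap, yet the adjusted p from limma was 0.065, and it was called lower without busulfan replicate 1 and after quantile normalization. Fbln1 changed least, at 8.78, 8.26 and 5.53 FPKM with busulfan and 9.35, 7.33 and 9.22 FPKM with DMSO, with an interval of -0.55 to 0.17. Of the 13 fibroblast markers 5 were called lower and 8 were not called, and their part was not tested.

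Among 5 small leucine-rich proteoglycan genes 3 were called lower (60%, against 22.1% of all tested genes) and 2 were not called. Their median log2 change was -0.45. Dcn, which encodes decorin, a binder of collagen fibrils and of TGF-β, was the most abundant of the 41 genes by the mean of all libraries. It stood at 177, 171 and 132 FPKM with busulfan and 188, 164 and 218 FPKM with DMSO. Its groups overlapped and its interval on the log2 scale was -0.55 to 0.05 (limma adjusted p = 0.162). Bgn, which encodes biglycan, the closest relative of decorin, stood at 87.2, 77.2 and 60.4 FPKM with busulfan and 96.5, 90.0 and 104 FPKM with DMSO, without overlap (log2 change -0.38, limma adjusted p = 0.038). Fmod (fibromodulin) averaged 31.8 ± 5.27 FPKM with busulfan and 44.5 ± 5.78 FPKM with DMSO (log2 change -0.48, limma adjusted p = 0.0171). Ogn (osteoglycin) averaged 27.6 ± 5.38 FPKM with busulfan and 38.0 ± 6.39 FPKM with DMSO (log2 change -0.45, limma adjusted p = 0.0448). Lum, which encodes lumican and shares collagen sites with fibromodulin, varied most, at 8.23, 5.27 and 2.40 FPKM with busulfan and 8.31, 6.71 and 9.002 FPKM with DMSO (log2 change -0.62 ± 0.31, SE, limma adjusted p = 0.143). No member of this group kept its call in all leave-one-out fits, and all 3 calls were lost without DMSO replicate 3. The Bgn call held only without busulfan replicate 1, the Ogn call only without busulfan replicate 1 or DMSO replicate 2, and the Fmod call in all but the fit without DMSO replicate 3. The Bgn, Fmod and Ogn calls were also lost after quantile normalization.

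**Figure D4:**
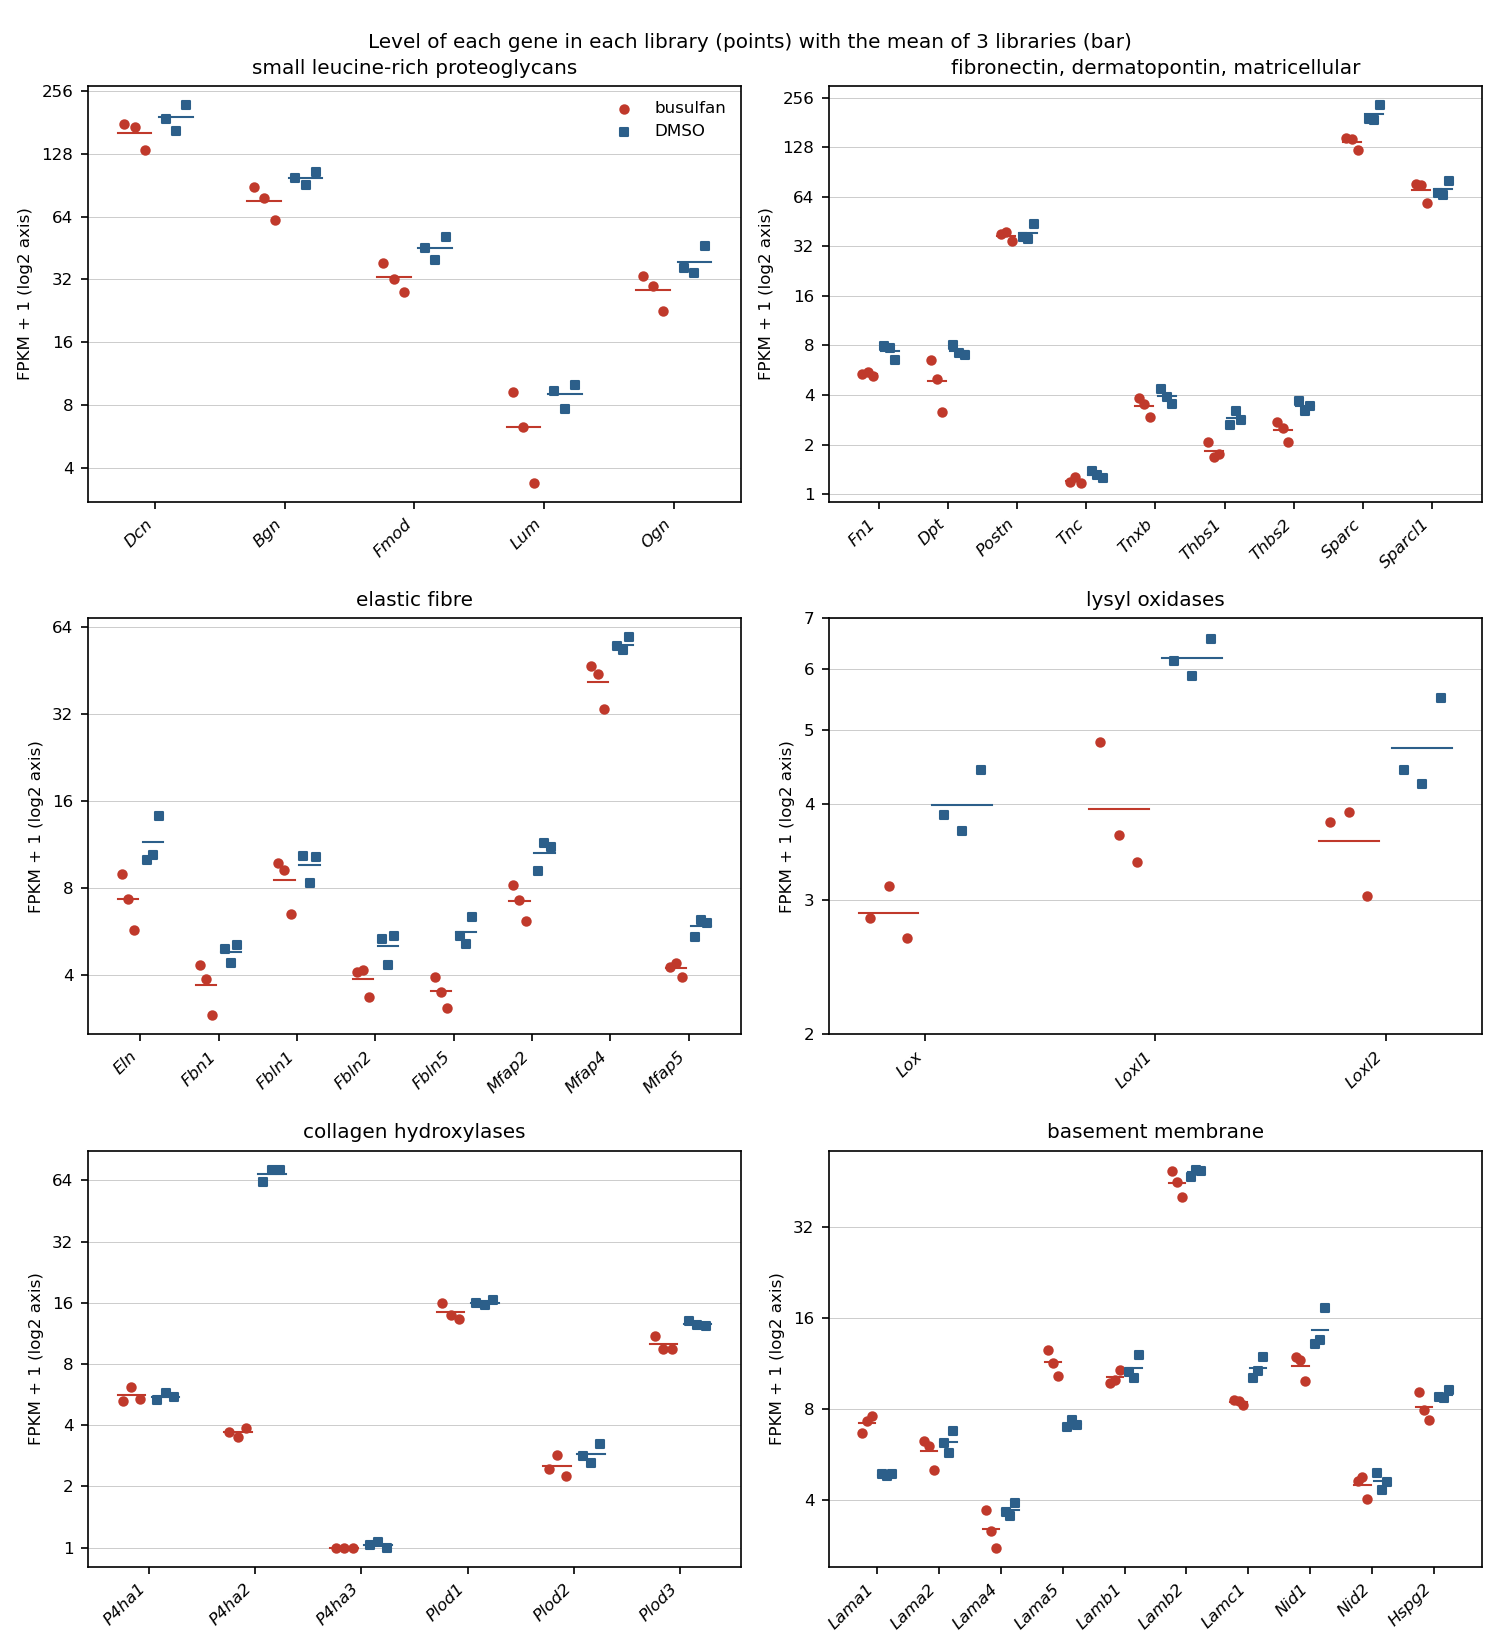
Normalized FPKM + 1 on a log2 axis for the 41 genes in 6 role groups; red circles are the 3 busulfan libraries, blue squares the 3 DMSO libraries and short lines the group means. Dcn and Sparc lead the levels, P4ha2 shows the widest gap between groups, and Dcn, Lum, Postn and Sparcl1 overlap.

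Of 9 genes for fibronectin, dermatopontin and matricellular proteins, 8 could be tested. Of these 5 were called lower (62.5%, against 22.1% of all tested genes, with Thbs1 tested only through its DMSO libraries) and 3 were not called. Their median log2 change was -0.47, and without DMSO replicate 1 the number lower was 3. Sparc, which encodes osteonectin, a collagen-binding glycoprotein and the second most abundant of the 41 genes, stood at 145, 142 and 122 FPKM with busulfan and 189, 186 and 231 FPKM with DMSO. The groups were apart by more than their spread (log2 change -0.56 ± 0.10, SE, limma adjusted p = 0.00232). Sparcl1, its paralog, stood at 75.3, 74.6 and 57.8 FPKM with busulfan and 66.3, 64.5 and 79.3 FPKM with DMSO, a change of -0.02 with an interval of -0.29 to 0.25 (limma adjusted p = 0.90). The sign of the Sparcl1 change turned after quantile normalization and without replicate 3 of either group. Postn, which encodes periostin, a protein of collagen-rich tissue under load, likewise overlapped, at 36.8, 38.3 and 33.4 FPKM with busulfan and 35.7, 34.7 and 42.7 FPKM with DMSO (interval -0.26 to 0.15).

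Thbs1 and Thbs2 encode thrombospondins, which restrain vessel growth, and thrombospondin-1 can activate latent TGF-β. Thbs1 stood at 1.08, 0.674 and 0.757 FPKM with busulfan and 1.64, 2.21 and 1.83 FPKM with DMSO, and is counted among the 21 falls. It was the only tested member with a group mean under 1 FPKM. It passed the filter through the DMSO libraries, so its test is not given. Thbs2 averaged 1.44 ± 0.338 FPKM with busulfan and 2.42 ± 0.242 FPKM with DMSO (log2 change -0.49, limma adjusted p = 0.0158), a call not kept without DMSO replicate 1. Fn1, which encodes the cell-adhesive glycoprotein fibronectin, averaged 4.39 ± 0.152 FPKM with busulfan and 6.38 ± 0.715 FPKM with DMSO (log2 change -0.45, limma adjusted p = 0.00411). Dpt, which encodes dermatopontin, a decorin-binding protein of fibroblasts, stood at 5.54, 3.999 and 2.14 FPKM with busulfan and 7.06, 6.24 and 5.98 FPKM with DMSO (log2 change -0.66 ± 0.23, SE, limma adjusted p = 0.0488), and its call held only without busulfan replicate 1. Tnxb, which encodes tenascin-X, stood at 2.45 ± 0.457 FPKM with busulfan and 2.93 ± 0.417 FPKM with DMSO (limma adjusted p = 0.261). Tnc, which encodes tenascin-C, was under 0.4 FPKM in every library and was not tested.

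Genes that work with the members were counted from lists drawn up by function. Among 18 tested collagen-processing enzymes and chaperones 6 were lower, 3 higher and 9 not called, around a median of -0.11 (log2). These shares, 33.3% lower and 16.7% higher, stood beside 22.1% and 20.8% of all tested genes. Loxl3, a further lysyl oxidase gene, fell to 1.29 ± 0.313 FPKM with busulfan, against 3.61 ± 0.197 FPKM with DMSO. Loxl4, of the same family, averaged 0.357 FPKM with busulfan and 0.338 FPKM with DMSO, too low to test (named after its values were seen). Tgm2, a crosslinking transglutaminase gene, fell to 41.3 ± 2.44 FPKM against 68.1 ± 3.49 FPKM with DMSO, and Pcolce and Adamts2, which act in removing procollagen propeptides, fell to 60.9% and 54.2% of DMSO levels. P4hb, which encodes the β subunit that pairs with the P4ha products, was not called, at 535, 529 and 561 FPKM with busulfan and 587, 566 and 580.2 FPKM with DMSO (limma adjusted p = 0.164; named after its values were seen).

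Of 11 tested further genes in a list drawn up around elastic fibres and microfibrils, 3 fell and 3 rose (27.3% each, against 22.1% lower and 20.8% higher of all tested genes). The 3 falls were lost without DMSO replicate 3, and 1 gene was lower without busulfan replicate 2 or DMSO replicate 2, against 5 without busulfan replicate 1, while 5 were higher without busulfan replicate 3. Ltbp3 and Efemp2, which encode a latent TGF-β binding protein and fibulin-4, rose to 154% and 144% of DMSO levels, while Mmrn2 and Fbln7 fell to 64.2% and 64.1%. Of 6 tested further small leucine-rich proteoglycan genes limma called 0 (1, higher, at an unadjusted p under 0.05), and Prelp and Tsku, the most abundant, had log2 changes of -0.10 and 0.31. Of 14 tested further matricellular genes 2 fell (Wisp2, to 17.2% of the DMSO level, and Thbs3, to 69.6%), and 1 fell without busulfan replicate 2 or 3 or DMSO replicate 1 or 3. Wisp2, at 0.410 FPKM with busulfan and 2.39 FPKM with DMSO, passed the filter through the DMSO libraries. Of 9 tested further basement membrane genes Lamb3 fell to 75.8% and Frem1 rose to 132% of the DMSO level, and 7 were not called. The number higher there was 1 only with all libraries or without busulfan replicate 1.

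Of 14 TGF-β ligand, receptor and SMAD genes, a pathway that drives matrix synthesis in fibroblasts, 5 were lower, 3 higher and 6 not called. That was 35.7% lower and 21.4% higher, against 22.1% and 20.8% of all tested genes. Tgfb1 stood at 18.4, 16.7 and 17.1 FPKM with busulfan and 38.0, 41.7 and 57.6 FPKM with DMSO, without overlap (log2 change -1.32, limma adjusted p = 0.000142). Eng, a co-receptor of endothelium, fell to 42.2% of its DMSO level, and Ski and Skil, which encode repressors of SMAD proteins, fell to 56.5% and 60.8%. Of 21 tested matrix receptor genes 4 fell (7 without busulfan replicate 1) and 4 rose (2 without busulfan replicate 2). These shares, 19% each, were close to those of all tested genes. The laminin receptor genes Itga6 and Itga3 fell to 50.4% and 75.2% of DMSO levels, and the syndecan gene Sdc1 fell to 77.5%. Itgb4 and Dag1, which also encode laminin receptors, rose to 125.7% and 118.5% of DMSO levels. The integrin gene Itgb1 fell to 83.1% (these 3 named after their values were seen). Ddr1, an epithelial collagen receptor gene, rose to 122% of its DMSO level.

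Across the 41 genes, exons of 14 share bases with an exon of a gene on the opposite strand in GENCODE M21, among them Mfap4 (with Mapk7), Plod3 (with Znhit1) and Nid2 (with Rtraf). The strand setting of the counting is not given in the sources used here, so fragments of those pairs cannot be told apart. P4ha2, Lama1, Lama5, Sparc and Dcn share none.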

How the data were processed

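Messenger RNA was prepared with a stranded mRNA kit, per the labels' protocols, from 3 busulfan and 3 DMSO samples. Normalized FPKM, the unit per the file headers, are the values of the single table the authors deposited. Per the submitters' processing notes, TopHat2 2.1.1, Cufflinks 2.2.1 and the build mm10 were used, in roles left unstated. Annotation, strand setting and normalization between libraries are unstated too. FPKM scale to library size, so large falls elsewhere can raise other values.

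No library sizes are in the table. In genes under 0.5 FPKM, the commonest ratios put the libraries at 0.921 to 1.08 of DMSO replicate 1. After scaling 3054 such genes by these ratios, 64.3% of values above the smallest were whole multiples of it within 0.05. Evenly spread values would give 10%, but the ratios came from the same genes, so 10% is only a loose guide. Counts were not recovered, and no count test was run. Summed FPKM ran from 625087 to 666662 with busulfan and from 707219 to 732495 with DMSO. Libraries of a group had Spearman correlations, taken over genes, of 0.986 to 0.990, and libraries of different groups 0.936 to 0.949.

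The 12848 genes averaging 1 FPKM or more entered limma 3.58.1 (R 4.3.3) as log2(FPKM + 1), with the mean-variance trend, fitted on the 6 libraries together and checked on simulated data. This scale understates changes of low genes. Percentages and folds are ratios of mean FPKM. Figures used matplotlib 3.10.9. The members and lists were chosen with earlier results of these data known. Values per library are given for called members with a change of at least 0.5 and for the most abundant and least changed of each role group, and for some other members. In each related list up to 4 called genes with the largest changes are named, or the 2 most abundant.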

Additional observations from a re-analysis of the deposited data

How the results depend on the processing

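Over 13 alternatives, 13 of the 23 called members kept their call wherever they were tested, P4ha2, Lama1 and Lama5 among them, and 10 lost it at least once. Thbs1, which entered the test through its DMSO libraries, is also among those that kept it. The number of members lower was 21, and it ran from 12 to 23 on leaving out 1 library, with the 12 reached without DMSO replicate 3. It was 13 of 25 with a mean of at least 5 FPKM, where fewer genes are tested, 15 of 41 with no filter, 18 after quantile normalization (Bgn, Fmod, Mfap4 and Ogn lost, Fbn1 gained) and 21 with median-of-ratios size factors. It was 20 with a pseudocount of 0.1 and 18 without the mean-variance trend. The number higher was 2 throughout.

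The replicate block, with the replicate number as a factor, gave 15 lower and 2 higher. Same-numbered libraries did not deviate together (correlations of -0.18, -0.02 and -0.18 across genes), so the numbers were not taken as pairs.

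The sign changed in 4 members that were not called. After quantile normalization the log2 change of Postn was 0.0408 and the log2 change of Sparcl1 was 0.0857. On leaving out 1 library, the log2 change of Postn ran from -0.1104 to 0.0359, the log2 change of Sparcl1 from -0.0856 to 0.1027, the log2 change of P4ha1 from -0.0486 to 0.06 and the log2 change of Nid2 from -0.0928 to 0.0276. The cause was not tested. Low genes such as Thbs1 and Plod2 may have little depth behind them, and counts were not at hand to size it.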
